A study of Homo sapiens with 3 samples.

Results

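The HT29 cells described here are the 381 cells with the largest share of their RNA on TM4SF4 and on the kallikreins KLK6, KLK10 and KLK11, out of 2546 HT29-type cells and 15560 cells kept in the series. Single-cell RNA was counted as unique molecular identifiers (UMIs), 1 for each captured RNA molecule, in 3 libraries of Caco-2 and HT29, both established human colorectal cancer lines. Caco-2 at passage 8 and HT29 at passage 13 were seeded together at a ratio of 9 to 1 on Transwells and harvested on day 23. Controls 1 and 2 received no lipopolysaccharide (LPS), and the single LPS library came from a co-culture given 1 ng/ml LPS on day 22 for 24 h. Samples with low viability went through dead cell removal, so the cells measured are those that survived handling. With 1 LPS library, the Transwell, the library and LPS cannot be told apart.

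Control 1 held 5811 barcodes with 33893707 UMIs, control 2 held 6495 with 27934953 UMIs, and the LPS library held 6838 with 24185467 UMIs. Barcodes with at least 1500 UMIs, at least 700 genes and at most 20% mitochondrial UMIs were kept, which left 5093, 5307 and 5160 cells. A kept cell counted as HT29-gated when at least 0.1% of its UMIs lay on LYZ, KRT20, LCN2, CD24, CD44, CST6, TCN1 and BMP4 together, under 0.5% lay on APOA1 and APOC3, and it had fewer than 5 UMIs of MUC2 and FCGBP. This gate held 700 cells in control 1, 1000 in control 2 and 846 in the LPS library. Within each library the 15% of gated cells with the highest share of UMIs on KLK6, KLK10, KLK11 and TM4SF4 were taken, which gave 105, 150 and 126 cells, and the other 595, 850 and 720 gated cells served as the comparison. Pairs of libraries shared 9, 9 and 11 barcodes, none with the same counts.

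Kallikreins are secreted serine proteases encoded side by side on chromosome 19, made as inactive precursors and activated by cleavage. They are best known from skin and glandular epithelia, where they act in cascades on adhesion proteins, growth factor precursors and protease-activated receptors, and several are raised in colorectal tumours. TM4SF4 is a tetraspan membrane protein of the L6 family, known from liver, pancreas and intestine.

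The label of these cells as kallikrein-high named the smaller part of the signal. TM4SF4 supplied 58.5%, 72.9% and 72.3% of the ranking UMIs of these cells in control 1, control 2 and the LPS library, and KLK11 supplied 23.8%, 16.1% and 17.2%. They are therefore TM4SF4 and kallikrein high cells, shortened to KLK-high cells below. The ranking share had no gap at the limit. The lowest share inside and the highest outside were 0.209% and 0.209% in control 1, 0.234% and 0.233% in control 2, and 0.257% and 0.257% in the LPS library. Of the KLK-high cells, 30, 43 and 34 lay within 20% of the limit, with 38, 71 and 61 of the other cells as near on the other side, and 18.7%, 16.5% and 18.3% of gated cells had no ranking UMI at all. KLK-high cells had a median of 19, 13 and 14 ranking UMIs, and counting error at such numbers could hide a gap. The class is a range cut from a score, and whether it is a separate cell type was not tested.

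**Figure D1:**
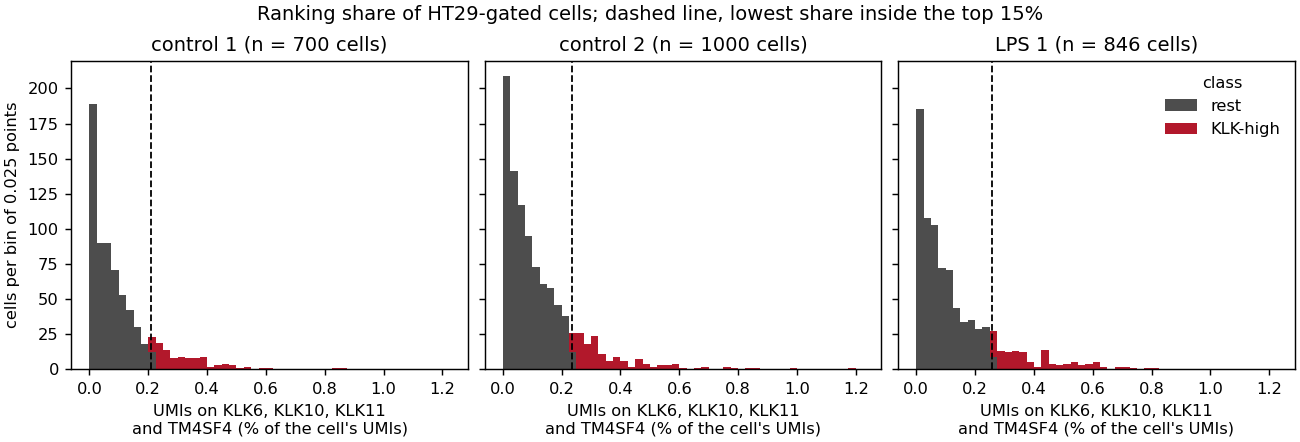
Number of HT29-gated cells (vertical axis, bins of 0.025 points) by the percentage of their UMIs on KLK6, KLK10, KLK11 and TM4SF4 (horizontal axis) in each library, with the KLK-high cells in red. The counts fall without a gap through the limit at 0.209%, 0.234% and 0.257%, marked by the dashed line.

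Promoters of the ranking genes are shown first, followed by those of MUC13, which had the smallest adjusted p among the genes higher in these cells, and of IFIT1 and IFIT3, interferon-stimulated genes that were higher in them and in the LPS library. Each run is the 300 bases from 250 before to 50 after a start site in RefSeq (GRCh38.p14), 5′ to 3′ on the gene's strand, with the first listed start site where a gene has several. Capitals mark TATAAA (the TATA box), TTTATG (a CDX-type site), TGANTCA (an AP-1 site) and the interferon-stimulated response element (ISRE), written here as GAAA, any 2 bases and GAAA, searched on both strands. KLK6 spans chr19:50969542-50969841, KLK10 chr19:51019812-51020111, KLK11 chr19:51027597-51027896 and TM4SF4 chr3:149474447-149474746, with MUC13 at chr3:124934702-124935001, IFIT1 at chr10:89392373-89392672 and IFIT3 at chr10:89327747-89328046.
KLK6: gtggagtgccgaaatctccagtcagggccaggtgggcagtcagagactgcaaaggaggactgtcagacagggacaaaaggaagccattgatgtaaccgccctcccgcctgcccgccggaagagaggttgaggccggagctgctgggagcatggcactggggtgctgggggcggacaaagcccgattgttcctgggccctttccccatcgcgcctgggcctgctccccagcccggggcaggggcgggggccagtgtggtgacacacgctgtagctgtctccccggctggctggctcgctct
KLK10: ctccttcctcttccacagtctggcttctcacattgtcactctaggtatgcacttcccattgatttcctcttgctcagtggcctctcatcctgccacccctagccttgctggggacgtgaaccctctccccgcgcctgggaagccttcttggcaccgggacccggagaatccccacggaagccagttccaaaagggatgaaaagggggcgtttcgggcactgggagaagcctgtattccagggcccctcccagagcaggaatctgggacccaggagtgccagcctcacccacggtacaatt
KLK11: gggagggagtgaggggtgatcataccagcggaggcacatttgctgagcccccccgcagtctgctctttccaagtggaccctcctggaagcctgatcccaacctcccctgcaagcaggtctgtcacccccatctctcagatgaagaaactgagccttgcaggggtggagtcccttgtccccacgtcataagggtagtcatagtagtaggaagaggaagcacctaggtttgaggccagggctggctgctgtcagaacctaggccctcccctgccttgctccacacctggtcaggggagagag
TM4SF4: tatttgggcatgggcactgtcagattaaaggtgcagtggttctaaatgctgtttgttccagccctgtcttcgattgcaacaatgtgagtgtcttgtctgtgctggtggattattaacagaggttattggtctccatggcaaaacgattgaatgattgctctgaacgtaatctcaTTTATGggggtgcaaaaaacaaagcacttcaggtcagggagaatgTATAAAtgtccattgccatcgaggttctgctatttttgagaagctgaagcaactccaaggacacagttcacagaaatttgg
MUC13: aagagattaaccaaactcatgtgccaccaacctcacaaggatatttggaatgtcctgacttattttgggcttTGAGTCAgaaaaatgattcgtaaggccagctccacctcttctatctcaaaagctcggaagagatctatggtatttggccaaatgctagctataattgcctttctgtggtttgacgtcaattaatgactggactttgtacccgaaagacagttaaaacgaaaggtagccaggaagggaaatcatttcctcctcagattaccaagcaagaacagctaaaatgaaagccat
IFIT1: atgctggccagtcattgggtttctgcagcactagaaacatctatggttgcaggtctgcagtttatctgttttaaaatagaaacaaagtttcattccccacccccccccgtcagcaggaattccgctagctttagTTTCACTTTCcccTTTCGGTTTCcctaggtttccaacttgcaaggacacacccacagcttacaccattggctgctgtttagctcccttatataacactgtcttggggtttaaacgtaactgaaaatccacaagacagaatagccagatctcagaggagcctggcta
IFIT3: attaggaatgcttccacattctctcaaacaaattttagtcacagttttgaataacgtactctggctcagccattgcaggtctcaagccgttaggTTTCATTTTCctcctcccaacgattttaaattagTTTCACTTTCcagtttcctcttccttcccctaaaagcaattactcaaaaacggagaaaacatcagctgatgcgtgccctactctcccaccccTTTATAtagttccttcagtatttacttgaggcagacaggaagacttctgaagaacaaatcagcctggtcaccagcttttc
Of all 35116 promoters of this length, 11.5% held TATAAA, 10.6% TTTATG, 7.71% TGANTCA and 3.57% the ISRE letters. None of these letters lay in the KLK6, KLK10 and KLK11 windows, which says only that they were not found there. The TM4SF4 window held TATAAA from 31 to 26 bases before the start site and TTTATG from 76 to 71 bases before it, and the MUC13 window held TGANTCA from 178 to 172 bases before the start site. IFIT1 and IFIT3 each held the ISRE letters at 2 places, read on the other strand, and the capitals near the start of IFIT3 are a TATA box on the other strand. A match of letters is a description and not a shown site.

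Among the kallikreins that chose the cells, KLK11 was the most abundant by UMIs. Levels are given as CPM, the UMIs of a gene per 1e6 UMIs once all cells of the class in that library are added up. They describe the selection and carry no test. KLK11, at chr19:51022216-51028039, stood at 782, 589 and 686 CPM in the KLK-high cells of control 1, control 2 and the LPS library against 214, 215 and 186 CPM in the rest. KLK10, at chr19:51012739-51020175, stood at 284, 223 and 222 CPM against 53.4, 49.2 and 64.8 CPM, and KLK6, at chr19:50958631-50969673, at 298, 179 and 199 CPM against 114, 91.7 and 88.6 CPM. TM4SF4, at chr3:149474697-149503394, stood at 1919, 2661 and 2884 CPM against 322, 490 and 537 CPM. The classes did not overlap for any of the 4 genes, all of which the ranking used, and KLK6 showed the smallest ratio of mean levels (2.30-fold) and TM4SF4 the largest (5.54-fold). Of the 12 other genes of the rule, LYZ, the lysozyme of the HT29 gate, was higher at 2138, 1881 and 2038 CPM against 1176, 1132 and 1141 CPM, and KRT20, a keratin of mature colon cells, at 936, 695 and 929 CPM against 467, 493 and 486 CPM. APOA1, one of the apolipoproteins the gate limits, stood at 102, 246 and 193 CPM against 403, 427 and 423 CPM. Genes are set side by side here as UMI counts, which are not scaled by length.

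**Figure D2:**
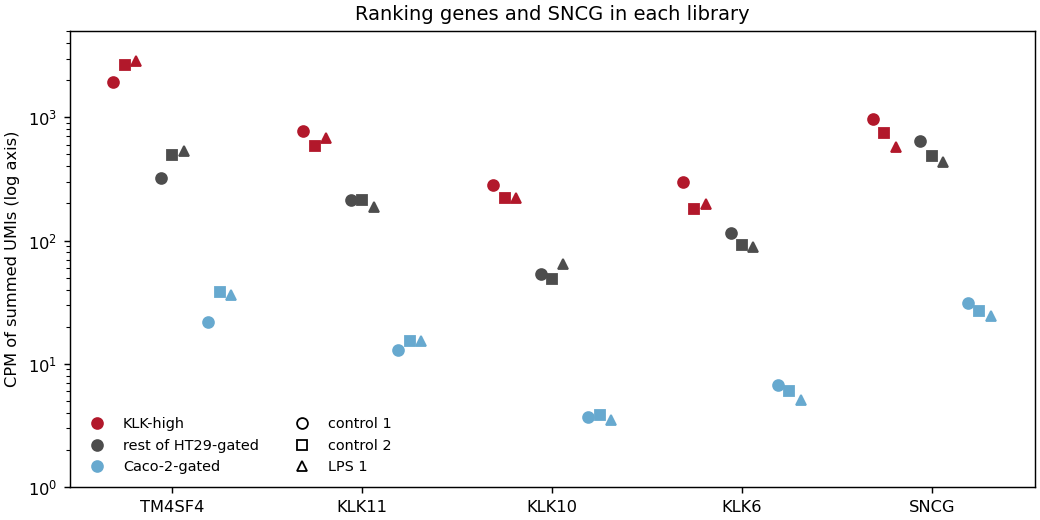
Level of the ranking genes and SNCG (CPM of summed UMIs, log axis) in KLK-high cells, the rest of the HT29-gated cells and Caco-2-gated cells, with 1 symbol for each library. TM4SF4 lies highest in the KLK-high cells of each library, and all 5 genes lie lower in Caco-2-gated cells (KLK10 near 3.71 CPM in control 1) than in either HT29 class.

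Each ranking gene could be tested only in classes it did not choose. Cells were therefore ranked again on 3 of the 4 genes, and the 4th was read in the edgeR quasi-likelihood fit of that class over 6 sums with the library as a block. KLK10 stood at 239, 183 and 211 CPM in the cells chosen without it and at 62.4, 56.0 and 66.4 CPM in the others, a log2 fold change of 1.74 (edgeR, adjusted p = 5.67e-12). TM4SF4 stood at 1324, 1464 and 1703 CPM against 438, 695 and 707 CPM when the kallikreins alone chose the cells (log2 fold change 1.32, edgeR adjusted p = 3.41e-13). KLK11 differed by 1.30 (edgeR adjusted p = 8.99e-28) and KLK6 by 0.71 (edgeR adjusted p = 3.36e-05), both higher in all 3 libraries. In these fits 8.1% (KLK6 left out), 7.7% (KLK10), 8.05% (KLK11) and 6.91% (TM4SF4) of all genes tested were higher, and 6.92%, 6.38%, 7.25% and 4.82% were lower. The 4 genes were put together with earlier results of these cells in view, so this is not independent evidence that they go together. Across single gated cells the Spearman correlation of KLK11 with TM4SF4 was 0.418 in control 1 (n = 700), 0.337 in control 2 (n = 1000) and 0.358 in the LPS library (n = 846), and KLK6 with KLK11 gave 0.217, 0.134 and 0.161. These cells share libraries and differ in depth.

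How often the ranking genes were seen together describes the choice of cells, since the ranking used them, and is no finding. A kallikrein UMI and a TM4SF4 UMI were found together in 95.2%, 94.0% and 93.7% of KLK-high cells in control 1, control 2 and the LPS library, and in 43.7%, 44.2% and 44.7% of the rest. After each cell was thinned to 1500 UMIs these shares were 70.5%, 70.0% and 81.0% against 14.5%, 16.8% and 18.1%. All 3 kallikreins were seen in 46.7%, 25.3% and 19.8% of KLK-high cells before thinning and in 7.62%, 2.67% and 2.38% after it. Only 2, 9 and 7 KLK-high cells had TM4SF4 and no kallikrein UMI. Caco-2-gated cells are kept cells with at least 0.5% of their UMIs on APOA1 and APOC3 together, at a median depth of 5600, 4405 and 3788 UMIs. They serve as a background level, and whether their UMIs of these genes came from free RNA was not tested. KLK11 UMIs were seen in 3.18%, 4.39% and 3.39% of these cells and in 51.8%, 47.6% and 42.8% of the rest. In KLK-high cells, whose share the ranking set, they were seen in 95.2%, 87.3% and 86.5%. After thinning these shares were 1.04%, 1.20% and 1.09% in Caco-2-gated cells, 25.4%, 23.6% and 22.5% in the rest and 65.7%, 53.3% and 61.9% in KLK-high cells.

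Depth was higher in the KLK-high cells of the controls only. Their median depth was 6192, 3931 and 3520 UMIs against 5127, 3767 and 3734 in the rest, with control 1 highest and the LPS library below its own comparison. Their median mitochondrial share was 3.54%, 4.21% and 4.26% against 2.89%, 2.71% and 3.54%, higher in all 3 libraries. At its automatic limit Scrublet marked only 3, 0 and 2 cells of whole libraries as doublets, and the reason was not tested. Removing the highest-scoring cells at an expected 6% left 753 genes higher and 596 lower in the comparison below.

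The gate was not free of Caco-2-type cells, and these lay mainly in the comparison cells. Cells were scored by the share of UMIs on a Caco-2 gene list less that on an HT29 list, both lists of the study, drawn from public bulk data of the lines. Of KLK-high cells, 0.952%, 3.33% and 4.76% reached 20 points, where 99.1%, 99.3% and 98.8% of Caco-2-gated cells lay, against 9.58%, 11.6% and 13.3% of the rest. Results on Caco-2-type genes are therefore also given with these cells left out, a setting chosen after seeing the data, in which 6.8% of all genes tested were higher and 5.14% lower. A stricter Caco-2 limit of 0.1% in the gate left 633 genes higher and 448 lower. The 8 enterocyte and Caco-2 line markers summed to 286, 553 and 460 CPM in KLK-high cells against 1078, 1028 and 1089 CPM in the rest, with APOA1 the most abundant. The 5 goblet markers summed to 170, 213 and 263 CPM against 701, 888 and 775 CPM, led by SPDEF, MUC5AC and TFF3 in turn, with FCGBP at 0 UMIs in all 3 libraries. TFF3 made up most of the sum in the rest, and its own fall is given below. SPDEF and MUC5AC did not pass in DESeq2 (log2 fold changes 0.16 and 0.03, DESeq2 adjusted p = 0.82 and 0.967). The gate itself limits MUC2 and FCGBP, so the sums show no fall of goblet markers as a group. The 5 enteroendocrine markers CHGA, CHGB, PAX4, INSM1 and NEUROD1 summed to 0, 12.6 and 0 CPM in KLK-high cells against 32.0, 29.1 and 4.17 CPM in the rest, with INSM1 the most abundant in control 2. The 4 Paneth markers summed to 1.44, 0 and 0 CPM, and the defensins DEFA4, DEFA5 and DEFA6 were at 0 UMIs.

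Outside the 16 genes of the rule, 900 of 10013 genes tested were higher in the KLK-high cells (8.99%) and 728 were lower (7.27%) by edgeR at an adjusted p under 0.05. The median log2 fold change over all genes tested was -0.0015. Of all genes tested, 15.2% lay higher in the KLK-high cells with no overlap between the classes over libraries, and 11.6% lower. A gene passed the filter on low counts with at least 5.28 CPM in 3 of the 6 sums. For a gene that reached this only through the class where it is high, the direction partly follows from the filter. Of all genes tested, 691 needed the KLK-high cells to pass and 1556 needed the rest, and most of these were not called. Of the 900 higher genes 37 needed the KLK-high cells to pass, among them CARNS1, PPP1R14D, KLK8, IFIT2, IFIT3, PSMB9 and CXCL1. Of the 728 lower genes 164 needed the rest, among them AFP, AKR1B10, BNIP3, PRSS1, PRSS2, RBP2, SERPINB3, SST, REG4, UBE2T and most of the proliferation genes below. The 15 genes rising most were spread over several gene groups, with 3 on the list of interferon-stimulated genes used here. OASL, an interferon-responsive gene outside that list, was also among the 15. DESeq2 gave an adjusted p to 3801 genes and called 307 of them higher (8.08%) and 215 lower (5.66%), all of them called in the same direction by edgeR. Of the 1628 genes edgeR called, 1119 had an adjusted p in DESeq2. Without the library block edgeR called 387 and 321.

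MUC13, a transmembrane mucin of the intestinal surface at chr3:124905442-124953819, had the smallest adjusted p of the genes that rose. It stood at 609, 821 and 738 CPM in the KLK-high cells of control 1, control 2 and the LPS library and at 169, 233 and 202 CPM in the rest, with no overlap between the classes (log2 fold change 1.80 ± 0.07 SE, edgeR adjusted p = 3.18e-49). MUC13 UMIs were in 80 of 105, 113 of 150 and 90 of 126 KLK-high cells. CARNS1, the enzyme that makes carnosine, was the gene with the largest rise, at 27.4, 29.8 and 28.8 CPM against 2.86, 3.70 and 7.38 CPM (log2 fold change 2.64 ± 0.34 SE), on 52 UMIs in 42 cells, and needed the KLK-high cells to pass the filter. APLP1, a relative of the amyloid precursor protein, stood at 53.3, 105 and 76.0 CPM against 10.6, 19 and 16.4 CPM (log2 fold change 2.31), and PPP1R14D, an inhibitor of protein phosphatase 1, at 37.4, 39.2 and 47.3 CPM against 4.57, 13.0 and 6.42 CPM (2.31). APLP1 and the adhesion-type gene VSIG10L (1.69) were higher in each of the 4 left-out rankings. In these, 388 genes rose and 309 fell every time. CARNS1 and PPP1R14D were also higher in each, but both needed the KLK-high cells to pass the filter. The 4 rankings share most of their genes, so their agreement is no independent evidence.

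AQP1, a water channel, stood at 212, 193 and 187 CPM against 57.7, 72.4 and 60.3 CPM (log2 fold change 1.59). MSLN, the cell surface protein mesothelin, stood at 72, 119 and 82.2 CPM against 24.0, 29.6 and 32.1 CPM (1.64), ANO3 of the anoctamin family rose by 1.76 and UPK3B, an uroplakin of urothelial and mesothelial surfaces, by 1.67. None of these overlapped between the classes. AQP1, ANO3 and AXIN2, a Wnt feedback gene (0.80), belong to the study's own markers of undifferentiated HT29 cells, of which 6 of 9 rose and none fell (median 0.58). That list was chosen by the study on these samples and is not independent evidence of a direction.

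**Figure D3:**
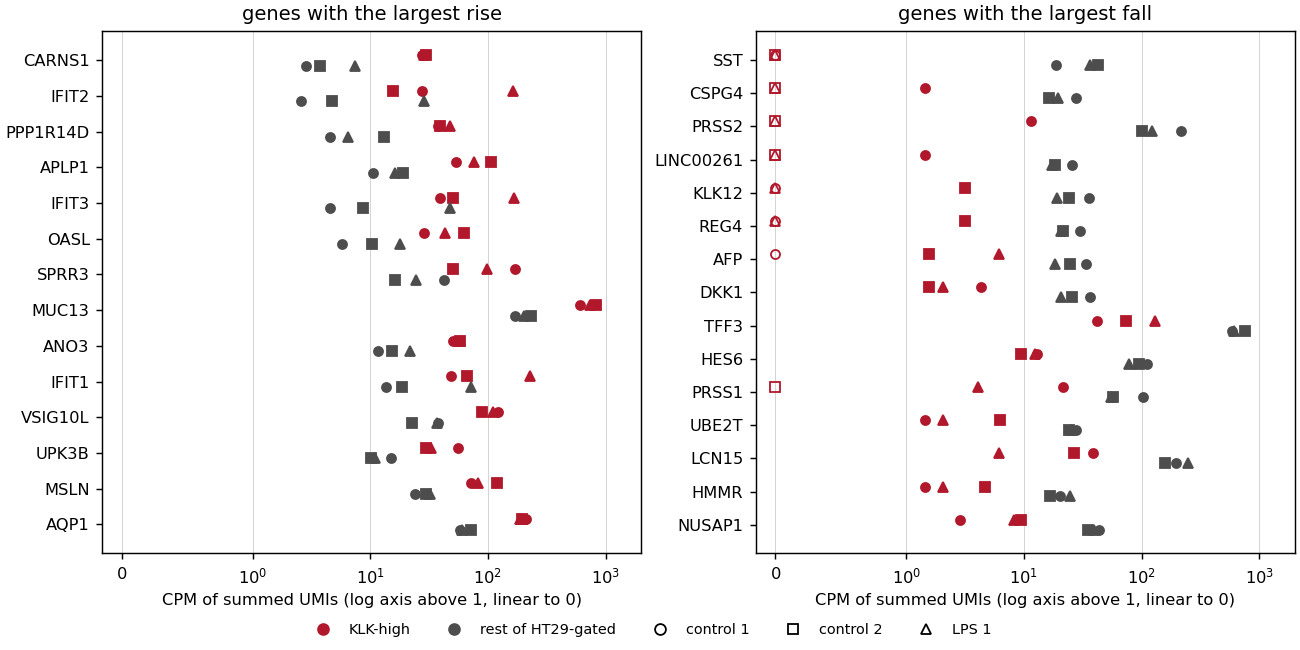
Level (CPM of summed UMIs, log axis above 1 and linear down to 0) of genes with the largest rise and the largest fall in KLK-high cells, in each library and class, with open symbols at 0 UMIs. MUC13 lies highest on the left (609 to 821 CPM in KLK-high cells), and SST is at 0 in the KLK-high cells of all 3 libraries.

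Elsewhere in the kallikrein family 3 genes passed the filter on low counts. KLK8, between KLK6 and KLK10 at chr19:50996007-51002711, stood at 7.20, 9.42 and 20.5 CPM against 2.28, 3.44 and 3.53 CPM, on 5, 6 and 10 UMIs, and passed the filter only through the KLK-high cells. KLK12, the next gene after KLK11 at chr19:51029092-51035230, stood at 0, 3.14 and 0 CPM against 35.7, 24.3 and 19.3 CPM, a pooled ratio of rest to KLK-high of 24.2 (95% counting interval 6.64 to 201) on 2 UMIs against 277, so that it passed the filter only through the rest. KLK1, the tissue kallikrein far from these at chr19:50819146-50823787, fell by 0.82 on the log2 scale (edgeR adjusted p = 0.000528), and by 0.53 (adjusted p = 0.103) without the Caco-2-type cells. DESeq2 gave no adjusted p to KLK8 and KLK12, and one of 0.0519 to KLK1. KLK1 UMIs were in 65.5%, 61.3% and 58.1% of Caco-2-gated cells. Rankings on the kallikreins alone called 6.9% of all genes higher and 4.82% lower, and on TM4SF4 alone 7.67% and 7.82%. With the kallikreins alone as ranking genes KLK12 changed by -0.52 (edgeR adjusted p = 0.243), and KLK8 by 1.29 (edgeR adjusted p = 0.0963), and by 1.13 (adjusted p = 0.135) with TM4SF4 alone. Of the other kallikreins, KLK7 summed to at most 3.14 CPM and KLK2, KLK3, KLK5 and KLK15 to at most 1.57 CPM in any library of KLK-high cells.

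Protease inhibitors split in direction. Of the 14 tested, 6 rose and 3 fell (median log2 fold change -0.14). SLPI, the secretory leukocyte protease inhibitor, rose, at 655, 465 and 425 CPM against 363, 200 and 190 CPM with no overlap (1.01 ± 0.08 SE, edgeR adjusted p = 1.1e-23). SERPINA1, alpha-1-antitrypsin, fell, at 262, 275 and 364 CPM against 563, 535 and 686 CPM (-1.04, edgeR adjusted p = 1e-24), as did SPINK1, the pancreatic trypsin inhibitor (-0.83), and SERPINB3 (-2.74). Of the 10 other serine proteases tested, 3 rose and 2 fell (median 0.17). The membrane protease matriptase, ST14, stood at 209, 206 and 183 CPM against 115, 105 and 117 CPM (0.79, edgeR adjusted p = 1.91e-10), and PRSS8, prostasin, which matriptase activates, rose by 0.64. The 2 that fell were the trypsinogens PRSS1 and PRSS2, while PRSS3, a further trypsinogen and the most abundant of them, stood at 284, 231 and 216 CPM against 264, 222 and 207 CPM (0.03, edgeR adjusted p = 0.867). PRSS2 stood at 11.5, 0 and 0 CPM against 218, 101 and 122 CPM, and all 8 of its UMIs in KLK-high cells came from 1 cell of control 1, and PRSS1 stood at 21.6, 0 and 4.11 CPM against 103, 57.1 and 54.6 CPM. F2RL1, the protease-activated receptor that trypsin cleaves, was the one tested of 4 such receptors (0.39, edgeR adjusted p = 0.377). Of the other L6 family genes 2 were tested. TM4SF1 changed by 0.44 (edgeR adjusted p = 2.39e-08), and TM4SF5 by -1.46 (edgeR adjusted p = 0.0573). Neither was called higher with TM4SF4 alone as the ranking gene.

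SNCG, gamma-synuclein, was named as a marker of these cells but did not separate them. It stood at 963, 749 and 571 CPM in the KLK-high cells and at 646, 490 and 437 CPM in the rest. It was higher within each library (0.49 ± 0.06 SE), but the classes overlapped across libraries. Its UMIs were in 93.3%, 81.3% and 71.4% of KLK-high cells against 66.7%, 62.8% and 58.2% of the rest, and after thinning in 68.6%, 57.3% and 51.6% against 45.5%, 43.2% and 40.6%. In Caco-2-gated cells the thinned shares were 2.30%, 2.76% and 1.44%, far below both HT29 classes. When all gated cells were cut into 5 equal groups by ranking share, the mean level of SNCG over libraries went from 339 CPM in the lowest to 763 CPM in the highest, while MUC13 went from 84.8 to 631 CPM and TFF3 from 1034 to 109 CPM. The lowest group was also the shallowest, at a median of 3728, 2932 and 3005 UMIs.

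Genes of antigen presentation were higher in the KLK-high cells. Of 10 MHC class I genes, 9 rose and none fell (median log2 fold change 0.80 against -0.0015 over all genes tested), and 7 rose without the Caco-2-type cells. B2M, the light chain of every class I molecule, was picked out after its values were seen, and stood at 3236, 3699 and 3289 CPM against 1662, 1961 and 1960 CPM with no overlap (0.83 ± 0.05 SE, edgeR adjusted p = 3.93e-35). HLA-B, a heavy chain, stood at 281, 389 and 240 CPM against 103, 207 and 181 CPM (0.89), PSMB8 and PSMB9, immunoproteasome subunits, rose by 0.85 and 1.04, and the peptide transporter TAP1 by 0.96. PSMB9 and TAP1 were called on 6 to 23 UMIs a library, and both missed the threshold without the Caco-2-type cells (edgeR adjusted p = 0.0944 and 0.0975). DESeq2 called 6 of the 7 class I genes to which it gave an adjusted p, and PSMB8 did not pass (DESeq2 adjusted p = 0.0578).

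Of the 14 interferon-stimulated genes tested, 11 rose and none fell (median log2 fold change 0.79), the same count as without the Caco-2-type cells. ISG15, a ubiquitin-like modifier, was also picked out after its values were seen, and stood at 777, 834 and 1703 CPM against 497, 455 and 797 CPM (0.84 ± 0.06 SE, edgeR adjusted p = 1.29e-24), with UMIs in 87 of 105, 104 of 150 and 90 of 126 KLK-high cells. Without the cell highest for it in each library ISG15 was at 642, 626 and 1474 CPM, still above the rest. The antiviral genes IFIT2 (2.46), IFIT3 (2.14), IFIT1 (1.70) and MX1 (1.08) had larger fold changes but far fewer cells behind them. IFIT2 stood at 27.4, 15.7 and 162 CPM against 2.57, 4.76 and 28.9 CPM. Each library was higher in the KLK-high cells, but for IFIT1, IFIT2 and IFIT3 the classes overlapped across libraries. In control 1, 18 of its 19 UMIs in KLK-high cells came from 1 cell, and without that cell the level was 1.46 CPM, below the rest. IFIT3 fell to 16 and 12.7 CPM in the controls without the cell highest for it in each, still above 4.57 and 8.73 CPM in the rest. OASL, another interferon-responsive gene, stood at 28.8, 62.8 and 43.1 CPM against 5.71, 10.3 and 18.0 CPM, with 34 of its 40 UMIs in control 2 in 1 cell, without which it was at 9.51 CPM. With TM4SF4 alone as the ranking gene OASL missed the threshold (0.76, edgeR adjusted p = 0.0847). Of the 11 genes of this list with a RefSeq promoter entry, 9 held the ISRE letters, against 3.85% of all genes tested with an entry. Among genes higher in KLK-high cells this share was 7.91%, and among those lower 3.25%.

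**Figure D4:**
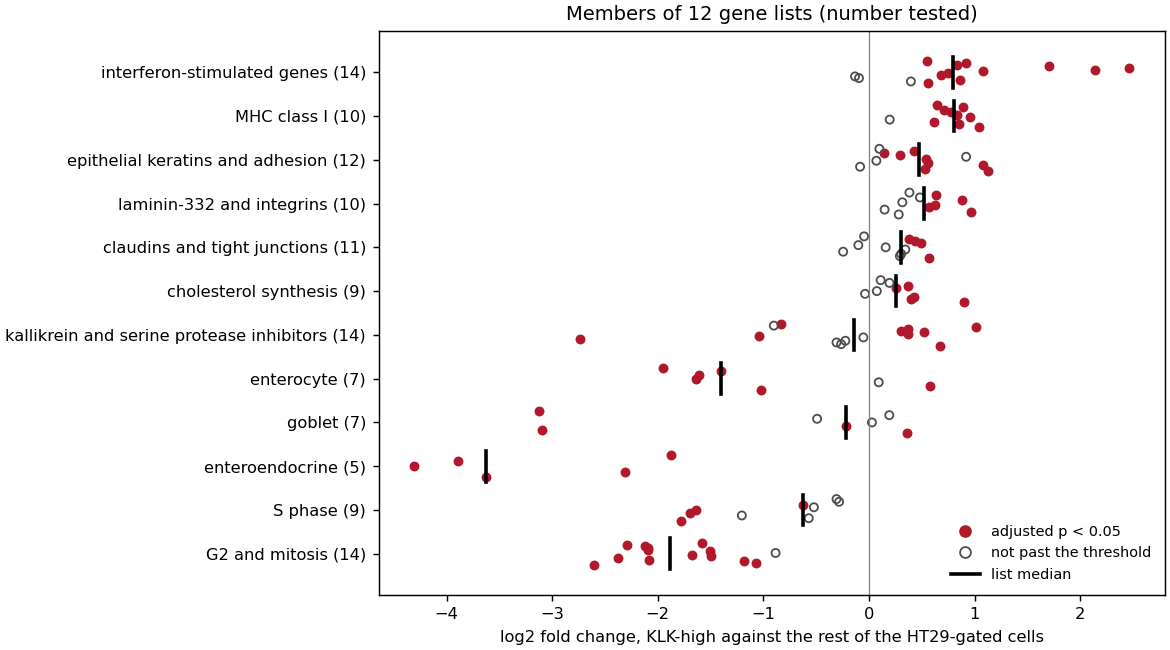
Log2 fold change between KLK-high cells and the rest (horizontal axis) for each tested member of 12 gene lists, filled where the edgeR adjusted p was under 0.05, with the list median as a bar and SST drawn at its bound. Interferon-stimulated and MHC class I genes lie to the right (medians 0.79 and 0.80), and G2 and mitosis genes to the left (median -1.88), where 11 of 14 needed the rest to pass the filter on low counts.

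Of 12 tested keratin and adhesion genes, 8 rose and none fell (median 0.48). CEACAM7, a carcinoembryonic antigen family member of colon surface cells, stood at 222, 185 and 284 CPM against 115, 85.7 and 101 CPM (1.13, edgeR adjusted p = 2.84e-18), CEACAM1 rose by 1.08 and CDH1, E-cadherin, by 0.56. Of 10 laminin-332 and integrin genes, which anchor cells to the basement membrane, 5 rose and none fell (median 0.52). ITGB4, integrin beta 4, stood at 263, 259 and 230 CPM against 115, 123 and 141 CPM (0.97), and COL17A1 rose by 0.88, LAMB3 by 0.63 and ITGA3 by 0.62. Of 11 claudin and tight junction genes 4 rose, namely CGN (0.57), CLDN7 (0.49), CLDN4 (0.43) and CLDN3 (0.38), and none fell. In DESeq2 CGN did not pass (0.55, DESeq2 adjusted p = 0.209). Of 8 annexins 4 rose, led by the intestinal ANXA13 (1.23) and ANXA4 (0.91). ANXA5 fell by 0.38 on the log2 scale in edgeR, and did not pass in DESeq2 (DESeq2 adjusted p = 0.118). Of 9 S100 genes 4 rose, among them S100A4 (0.36), and S100A2 fell by 1.03 on the log2 scale but stood at 0.28 (edgeR adjusted p = 0.166) when the kallikreins alone ranked the cells. With TM4SF4 alone as the ranking gene 2 annexins and 1 S100 gene were higher, and 2 S100 genes were higher without the Caco-2-type cells.

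Of 21 squamous-type genes 8 passed the filter on low counts, of which 3 rose (median 0.26). Without the Caco-2-type cells 2 rose and the median was 0.01, and 7 rose when the kallikreins alone ranked the cells against 2 with TM4SF4 alone. SPRR3, a small proline-rich protein of squamous cell envelopes, stood at 171, 50.2 and 98.6 CPM against 42.5, 16.1 and 24.4 CPM (1.89, edgeR adjusted p = 4.27e-21), on 21, 13 and 14 cells. SPRR1B (0.52) and KRT15 (0.63) were the other members. SPRR1B differed by 1.5 when the kallikreins alone ranked the cells (edgeR adjusted p = 9.89e-13) and by 0.09 when TM4SF4 alone did (edgeR adjusted p = 0.642). Of KLK-high cells, 21.9%, 30.0% and 21.4% were also in the top 15% for squamous markers, against 13.8%, 12.4% and 13.8% of the rest. For NDRG1, AQP1 and PYGB these shares were 18.1%, 24.7% and 23.0% against 14.5%, 13.3% and 13.5%, and for lipocalin and trypsinogen genes 7.62%, 11.3% and 11.9% against 16.3%, 15.6% and 15.4%. These scores share genes with the lists above.

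Of 9 cholesterol and fatty acid synthesis genes 5 rose, 4 did not pass the test and none fell (median 0.26), and 3 were higher when the kallikreins alone ranked the cells. SCD, the stearoyl-CoA desaturase, stood at 4160, 6064 and 5956 CPM against 2231, 3147 and 3013 CPM with no overlap (0.90 ± 0.04 SE, edgeR adjusted p = 1.9e-42). INSIG1, a feedback regulator of sterol synthesis, rose by 0.43 and FASN, fatty acid synthase, by 0.40. Hypoxia and glycolysis genes had no common direction, with 6 of 17 higher and 4 lower, and 3 and 3 without the Caco-2-type cells. PYGB, the brain-type glycogen phosphorylase, rose by 0.91 and the glucose transporter SLC2A1 by 0.46, while BNIP3 fell by 1.41 on the log2 scale, and by 0.46 (edgeR adjusted p = 0.541) without the Caco-2-type cells.

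Proliferation genes had few UMIs in the KLK-high cells. Of the 14 G2 and mitosis genes that passed the filter 3 reached its limit in the KLK-high cells of all 3 libraries, while 11 needed the rest to pass. The count of 13 lower and none higher therefore partly follows from the filter. The 3 were MKI67 (-1.58), TPX2 (-1.18) and HMGB2 (-1.07), each lower in edgeR. DESeq2 gave an adjusted p to 3 of the 14 and called all 3 lower, and to 1 of the S phase genes below, which did not pass. TOP2A, the replication topoisomerase, stood at 4.32, 44 and 18.5 CPM against 91.7, 109 and 115 CPM (-2.29), on 40 UMIs in 19 KLK-high cells, and at 0.06 on the log2 scale once cycling cells, which such genes define, were removed. CENPF (19 UMIs), CDK1 (15) and the spindle genes NUSAP1 (12) and HMMR (5) had fewer still, and HMMR passed only through the rest. Of 9 S phase genes 4 were called lower, and 2 without the Caco-2-type cells. TYMS had 11 UMIs, and RRM2 (6) and HELLS (7) passed only through the rest, so that MCM7 (-0.62) alone of the 4 reached the limit in all 3 libraries of KLK-high cells. Cells with at least 3 UMIs of G2 and mitosis genes made up 3.81%, 5.33% and 2.38% of KLK-high cells and 11.8%, 10.9% and 11.1% of the rest, and after thinning 0%, 4.0% and 1.59% against 6.22%, 6.12% and 6.67%. In control 1 no KLK-high cell of 105 reached this after thinning, which allows up to 2.86% of cells with 3 such UMIs among 1500 and is no limit on cycling cells, since 4 of 105 reached it before thinning. For S phase genes the shares were 3.81%, 3.33% and 1.59% against 9.75%, 5.06% and 6.94%, and after thinning 0.952%, 0.667% and 0% (0 of 126 cells, which allows up to 2.38%) against 1.85%, 0.706% and 1.11%, close together in control 2. UBE2T, a ubiquitin enzyme of DNA repair, fell by 2.98 on the log2 scale, on 6 UMIs in the KLK-high cells.

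TFF3, the trefoil peptide of goblet cells, stood at 41.7, 73.8 and 129 CPM against 592, 757 and 609 CPM with no overlap (-3.13 ± 0.11 SE, edgeR adjusted p = 1.41e-55), and in the LPS library 29 of its 63 UMIs came from 1 KLK-high cell. HES6, a bHLH factor of secretory precursors, stood at 13.0, 9.42 and 12.3 CPM against 111, 95.2 and 78.6 CPM (-3.10). REG4, a lectin of secretory cells, and SST, somatostatin, were close to absent. SST had 0 UMIs in KLK-high cells and 339 in the rest, so it was at least 19.8-fold lower against a floor of 3 counts over the class, and REG4 had 2 UMIs, a pooled ratio of 21.9 (95% counting interval 6.01 to 182). Both passed the filter only through the rest. LCN15, a secreted lipocalin, fell by 2.98 on the log2 scale. Of 13 enteroendocrine genes only 5 passed the filter, which a gene near 0 in the KLK-high cells can pass only through the rest, and all 5 were lower, with GCG at 1 UMI, HEPACAM2 at 3 and SCGN at 3 in the KLK-high cells. Without the Caco-2-type cells 3 were tested and 2 were lower. Of 7 goblet genes tested 3 fell and LGALS4, a galectin, rose by 0.36, and stood at -0.03 (edgeR adjusted p = 0.958) at a gate of 0.5%. Of 8 mucin and trefoil genes MUC13 rose and TFF1 (-2.06) and TFF2 (-1.50) fell. CSPG4 (1 UMI) and LINC00261 (1 UMI), the latter a long RNA next to FOXA2, had pooled ratios of 38.6 (6.86 to 1533) and 37.1 (6.58 to 1471), and also passed only through the rest.

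Several absorptive and liver-type genes were lower as well, and fewer of them passed when the Caco-2-type cells were left out. Of 7 enterocyte genes outside the rule 5 fell and 1 rose (median -1.40), and 3 fell without the Caco-2-type cells. FABP1, the liver fatty acid binding protein, stood at 76.3, 146 and 127 CPM against 349, 335 and 331 CPM (-1.60), and still fell by 1.37 without those cells. APOA4 fell by 1.95 on the log2 scale, APOB by 1.40 and RBP2 by 1.64, and RBP2 then missed the threshold (edgeR adjusted p = 0.105). At a Caco-2 limit of 0.1% APOB stood at 0.0035 (edgeR adjusted p = 0.999). APOA4 turned to 0.76 (edgeR adjusted p = 0.00477) when TM4SF4 alone ranked the cells. Of 6 fetal liver and stem-like genes 4 fell and PLA2G2A rose. AFP stood at 0, 1.57 and 6.16 CPM against 34, 24.9 and 18.3 CPM (-3.59), on 4 UMIs in 3 KLK-high cells, and TTR at -1.50. Without the Caco-2-type cells 3 fell and none rose. DESeq2 gave an adjusted p to 2 of the 6 and called 1 lower. AFP did not fall when the kallikreins alone ranked the cells (0.17, edgeR adjusted p = 0.84). DKK1, a Wnt inhibitor, had 5 UMIs in 3 KLK-high cells and passed the filter only through the rest.

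Of 14 epithelial transcription factor genes 2 were called lower and none higher (median 0.08). CDX2, the intestinal homeobox factor, stood at 4.32, 3.14 and 4.11 CPM against 15.1, 13.5 and 21.5 CPM, on 7 UMIs, and passed the filter only through the rest. FOXA2 stood at 8.64, 40.8 and 22.6 CPM against 67.4, 61.6 and 58.1 CPM (-1.45, edgeR adjusted p = 1.59e-08). DESeq2 gave no adjusted p to CDX2 and one of 0.0714 to FOXA2. Of 9 Wnt targets 2 rose and 3 fell, MYC (-0.85) and ASCL2 (-1.06) among the latter. Without the Caco-2-type cells 1 rose and 4 fell of 8 tested. DESeq2 called 1 higher and 0 lower of the 3 Wnt targets to which it gave an adjusted p. Of 13 EGF receptor genes 6 rose and 1 fell, with the ligand HBEGF at 0.78 and the receptor ERBB2 at 0.54, and DESeq2 called 0 of the 6 to which it gave an adjusted p. Without the Caco-2-type cells 3 rose and none fell, and 1 was higher when the kallikreins alone ranked the cells. Of 11 NF-kB targets 5 rose and none fell, among them CXCL1 (1.35), BIRC3 (1.12) and NFKBIZ (0.62). Of these 5, CXCL1 and CCL20 needed the KLK-high cells to pass the filter, on 22 and 21 UMIs in 10 and 8 cells. CD14, which hands LPS to its receptor, rose by 0.98 (edgeR adjusted p = 0.00533), but was not called higher with TM4SF4 alone as the ranking gene. DESeq2 called 0 of the 2 NF-kB targets to which it gave an adjusted p, and gave none to CD14. With either the kallikreins or TM4SF4 alone 3 of the NF-kB targets were higher. TLR4 had 0 UMIs in the KLK-high cells and 6 in the rest. The level in the rest, 0.577 CPM, was itself under the floor of 1.65 CPM, so the classes cannot be told apart for TLR4. Of 11 NRF2 and aldo-keto reductase genes 4 fell, AKR1B10 (-1.61) and AKR1C1 (-1.21) among them. Of 11 unfolded protein response genes only HSP90B1 passed (-0.30). Of 13 immediate early and heat shock genes 2 rose, and none without the Caco-2-type cells. Of 8 BMP and TGF-beta genes 1 rose and 1 fell, and without the Caco-2-type cells 1 rose and 0 fell. DESeq2 called 0 of the 4 BMP and TGF-beta genes to which it gave an adjusted p. Of 4 YAP targets, 4 metallothioneins and 1 steroid receptor none passed. Paneth genes gave 2 tested, with PRSS2 lower. PLA2G2A was called higher in edgeR (0.85), at 2.88, 14.1 and 103 CPM against 20.3, 11.4 and 22.5 CPM, below the rest in control 1 and with 49 of its 61 UMIs in 1 cell of the LPS library. No placental gene passed the filter on low counts.

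LPS was compared within the KLK-high cells to ask how they differed in the treated co-culture. In edgeR, with 1 residual degree of freedom and the LPS library assumed to vary as the controls do, 19 of 7562 genes were higher (0.251%) and 2 lower (0.0264%), while DESeq2 called none in either direction, with 26 genes at an unadjusted p under 0.05. Of the 14 interferon-stimulated genes tested 6 were called higher, and all 14 had a positive log2 fold change (median 1.00 against -0.01 over all genes tested). In the rest of the HT29-gated cells 4 of 14 were called higher (median 0.61), beside 12 higher (0.0995%) and 16 lower (0.133%) among 12056 genes. Both comparisons come from the same 3 libraries. No interferon-stimulated gene of the list passed the test of a difference between the classes, which called 6 of 10013 genes higher (0.0599%) and 1 lower (0.00999%).

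IFIT2 stood at 27.4 and 15.7 CPM in the KLK-high cells of the controls and at 162 CPM with LPS (log2 fold change 2.87), and went from 2.57 and 4.76 to 28.9 CPM in the rest (2.91). Its LPS level came from 15 of 126 KLK-high cells. RSAD2, viperin, stood at 0 and 1.57 CPM in the controls and at 78.1 CPM with LPS, a ratio of 104 (95% counting interval 17.6 to 4213) on 38 UMIs in 12 cells against 1 UMI. MX2 went from 20.2 and 39.2 to 148 CPM (2.30), IFIT1 from 48.9 and 65.9 to 228 CPM (1.97), DDX60L from 8.64 and 7.85 to 55.5 CPM (2.69), MX1 from 33.1 and 18.8 to 92.4 CPM (1.79) and ISG15 from 777 and 834 to 1703 CPM (1.06). Each LPS value lay above both controls. PLA2G2A, a secreted phospholipase, stood at 2.88, 14.1 and 103 CPM, but 49 of its 50 UMIs in the LPS library came from 1 cell, without which it was at 2.08 CPM. The 2 lower genes were ILF2, at 64.8 and 59.7 against 14.4 CPM (-2.12), and RC3H2, at 41.7 and 28.3 against 4.11 CPM (-3.06, 2 UMIs). The 4 ranking genes chose these cells within each library, so their levels here cannot be read for LPS.

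**Figure D5:**
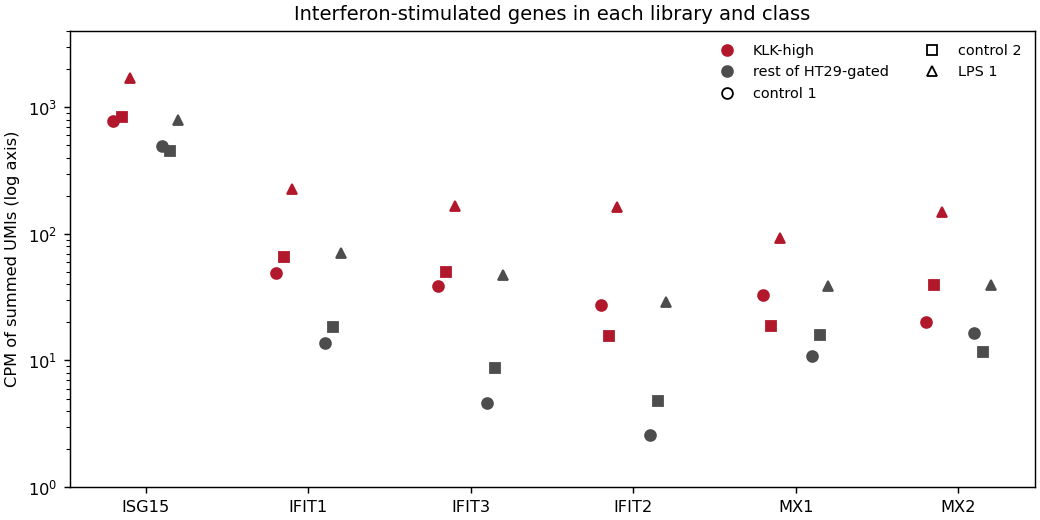
Level of 6 interferon-stimulated genes (CPM of summed UMIs, log axis) in KLK-high cells and the rest of the HT29-gated cells, with 1 symbol for each library. The LPS library lies highest within each class, as for IFIT2 at 162 and 28.9 CPM, and KLK-high cells lie above the rest of the same library.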

How the data were processed

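Droplet single-cell RNA counts of 3 libraries were used. The authors deposited UMI counts per gene and cell barcode from Cell Ranger (matrix header 3.1.0, GRCh38), without normalisation. The members, the gene lists and the tests were chosen with earlier results of these data known, so no pattern here is independent support for the choice. No cell type annotation was used, and doublets were left in except in an alternative.

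Counts of all cells of a class were added up per library, which gave 6 sums, and CPM was taken over all genes. The class comparison used the edgeR 4.0.16 quasi-likelihood test (R 4.3.3, TMM, genes with low counts removed) with the library as a block and Benjamini-Hochberg adjustment at 0.05 over all genes outside the rule. LPS was tested within each class on 2 controls and 1 LPS library, and the difference between classes as an interaction with the block. The libraries came from separate Transwells. In the class comparison the block takes up differences between libraries. Its p-values therefore measure how repeatable the difference between the classes was over 3 libraries, on 2 residual degrees of freedom. Within a class, the LPS p-values rest on the spread between the libraries. Ratios on few UMIs carry exact 95% intervals, and intervals and floors cover counting error only. Named genes were the 15 with the largest rise and the 15 with the largest fall at a mean of at least 20 CPM in the higher class and the same direction in all 3 libraries, the 5 with the largest LPS change in each direction, the 5 with the largest change in all left-out rankings, and up to 4 per gene list. Some genes that meet this rule are not reported here. Gene positions are GENCODE release 44, matched by identifier. DESeq2 1.42.0 and Scrublet (scanpy 1.11.5) served for alternatives, and the scripts were tested on simulated data.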

Additional observations from a re-analysis of the deposited data

Results flagged for a closer look

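For 7 of 10013 genes the LPS difference in the KLK-high cells differed from that in the rest of the HT29-gated cells (edgeR interaction test, 0.0599% higher and 0.00999% lower), with 493 genes at an unadjusted p under 0.05. DESeq2 called none, with 8 at an unadjusted p under 0.05. Among them, the difference was 3.12 on the log2 scale for PLA2G2A, 2.32 for TFF1, 1.66 for VTN, 1.58 for APOA2, 1.33 for TFF3 and -2.87 for LCN15.

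Single cells carried much of several of these levels in the 126 KLK-high cells of the LPS library. PLA2G2A had 49 of 50 UMIs in 1 cell, TFF1 23 of 32 and TFF3 29 of 63. APOA2 had 28 of 79 UMIs in 1 cell and VTN 15 of 45. LCN15 had 27, 17 and 3 UMIs in 13, 6 and 3 KLK-high cells of control 1, control 2 and the LPS library. APOA2 stood at 33.1, 78.5 and 162 CPM in the KLK-high cells against 220, 163 and 188 CPM in the rest, and TFF1 at 14.4, 17.3 and 65.7 CPM against 156, 92.5 and 104 CPM. VTN stood at 25.9, 28.3 and 92.4 CPM against 106, 113 and 118 CPM. The part of these single cells in the interaction test was not tested, and with 1 LPS library the library and LPS cannot be told apart.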

How the results depend on the processing

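Library pairing was kept as a block in the class comparison. Without the replicate block 387 genes were higher and 321 lower, against 900 and 728 with it. DESeq2 called 307 and 215 of the 3801 genes to which it gave an adjusted p, thinning to 1500 UMIs 253 and 211, a gate at 0.5% (18, 18 and 21 KLK-high cells) 99 and 126, and ranking within 5 groups of gate share, an alternative chosen after seeing the data, 557 and 479. For lower genes, ranking on the kallikreins alone gave 481, a Caco-2 limit of 0.1% 448 and removing cycling cells 440. Leaving out 1 library gave 609 to 637 higher and 468 to 567 lower, with 468 without control 1. For these counts the cause was not tested. Thinning leaves fewer UMIs and the gate at 0.5% fewer cells, and both also change which cells are compared. Of the 1628 genes called, 91 had the opposite sign at the gate of 0.5% and 35 after thinning, with 0 past the threshold that way in either. The left-out ranking genes kept direction and call in every setting run, with log2 fold changes without 1 library of 0.54 to 0.84 for KLK6, 1.65 to 1.79 for KLK10, 1.23 to 1.42 for KLK11 and 1.18 to 1.42 for TM4SF4, and without the replicate block of 0.73, 1.74, 1.31 and 1.30. With TM4SF4 alone as the ranking gene KLK6 was at 0.43, KLK10 at 1.34 and KLK11 at 1.15.

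Of 103 named genes tested, 40 kept direction and call in each of the 21 settings that gave them an adjusted p and 6 changed sign in any. AFP was at 0.17 and S100A2 at 0.28 with the kallikreins alone, LGALS4 at -0.0276 at a gate of 0.5%, APOA4 at 0.76 with TM4SF4 alone (chosen after seeing the data), APOB at 0.0035 at a Caco-2 limit of 0.1%, and TOP2A at 0.0557 without cycling cells, an alternative that removes cells by such genes. For LPS within KLK-high cells, DESeq2 called 0 higher and 0 lower, and the 2 lower genes became 0 with RLE factors, 1 with no filter and 0 at the top 25%. In the rest DESeq2 called 2 higher and 0 lower. For the interaction DESeq2 called 0 higher and 0 lower, and RLE factors 0 lower. No paired analysis was possible for LPS because the groups share only replicate number 1, and leaving out a control there could not be fitted for want of residual degrees of freedom. Low counts limit genes under about 20 CPM.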
